A study of Homo sapiens with 12 samples.

Results

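Glycolysis was followed through 10 of its enzymes in U2OS cells, a human osteosarcoma line. The genes were HK2, PFKP, ALDOA, TPI1, GAPDH, PGK1, PGAM1, ENO1, PKM and LDHA. They were found by gene name among the 58684 rows of the deposited count table, and each of the 10 had enough counts to be among the 12460 genes tested. The cells were stable lines, with eIF4E-Flag in some and only the vector in the others, and nothing else in the labels sets them apart. The labels do not give the promoter or say whether a line is a single clone. From each kind of cell, total RNA (input) and RNA recovered with an antibody to the cap (Cap IP) were sequenced, which gave 4 groups of 3 libraries: eIF4E Cap IP, vector Cap IP, eIF4E input and vector input. Per the series title, the study asked if eIF4E raises m7G capping of RNAs. eIF4E recognises this cap on mRNAs when translation starts. The labels do not say whether the 3 libraries of a group came from separate cultures, so the p-values reflect the spread among libraries, which may be technical.

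Glycolysis splits glucose into pyruvate in the cytosol and yields ATP and NADH on the way. Hexokinase and phosphofructokinase spend ATP to prime the sugar, aldolase and triose phosphate isomerase split it and interconvert the products, and the enzymes from GAPDH to pyruvate kinase recover ATP and NADH. Lactate dehydrogenase then turns pyruvate into lactate and restores NAD+. Many of these genes are known targets of the hypoxia-inducible factors and of MYC, and proliferating tumour cells often run the pathway in the presence of oxygen.

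Libraries held 1206321 to 1813486 counts. Counts were scaled with TMM to CPM (counts per 1e6 of the scaled library size), and 1 count stood for 0.395 to 0.646 CPM in input and for 0.638 to 1.05 CPM in Cap IP. The EIF4E gene had 39, 27 and 23 counts in eIF4E input libraries, against 15, 9 and 15 in vector input libraries. In Cap IP it had 29, 26 and 27 counts in eIF4E libraries, against 15, 12 and 30 in vector libraries. The log2 change of EIF4E in input was 0.98 ± 0.36 (SE, edgeR adjusted p = 0.231). Of 10 mesenchymal or osteoblast markers, COL1A2 and IBSP had no counts in eIF4E input libraries and IBSP none in vector input libraries, while VIM and others gave a summed level of 1561 to 1965 CPM in eIF4E input and 1782 to 2255 CPM in vector input.

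The strand on which reads were counted sets what each row means, and how it was set is unknown here. The kit named in the labels keeps the strand of the RNA. VIM-AS1 averaged 17369 counts per library, against 1289 for VIM on the other strand. MT-ND6, the one mitochondrial mRNA coded on its strand, averaged 6805 counts, against 1304 for MT-CO1. The 12 mitochondrial mRNA rows of the other strand together summed to more than MT-ND6, at 30414 counts per library. The 8 mitochondrial tRNA rows of the strand of MT-ND6 summed to 901.5 counts per library, and the 14 rows of the other strand to 60.4. Among 544 pairs of a coding gene and a lncRNA with overlapping exons on opposite strands, the lncRNA row held more counts in 59.9%. Rows counted on the strand opposite to the named gene would give such values for VIM-AS1, for MT-ND6 beside MT-CO1, for the tRNA rows and for the lncRNA rows. In that case the row of an enzyme would hold reads from the other strand of its gene and not those of its mRNA. Every level and change below is therefore that of the row that bears the enzyme's name, and whether it follows the enzyme's mRNA is not known. The same holds for EIF4E, the marker genes, the RNA polymerase III rows, the listed genes and the mitochondrial rows used for scaling.

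HK2, PFKP, PGK1, PGAM1, PKM and LDHA have no exon opposite another gene in GENCODE release 44 (GRCh38). Exons of ENO1 (chr1:8861000-8879190, minus strand) share 126 bases with ENO1-AS1, whose row averaged 19.9 counts against 1166 for ENO1. Those of TPI1 (chr12:6867119-6870948, plus strand) share 14 bases with SPSB2, which averaged 51.3 counts against 382. GAPDH (chr12:6534512-6538374, plus strand) shares 422 bases and ALDOA (chr16:30064164-30070457, plus strand) 520 bases with unnamed lncRNAs whose rows were not matched in the count table. Processed pseudogenes can take reads from a parent gene. The 61 GAPDH pseudogene rows held 694 counts, 2.01% of the GAPDH count, and those of LDHA held 3.27%. These shares pool all libraries, and the counts differed between groups. The GAPDH pseudogene rows held 219 counts in eIF4E input, 420 in vector input, 21 in eIF4E Cap IP and 34 in vector Cap IP. Those of LDHA held 17, 29, 3 and 5 in the same order. For PGAM1 the 13 pseudogene rows held 37 counts against 147 for the gene itself, or 25.2%, so PGAM1 is the least certain of the set. For the other members this share was at most 0.568%.

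Promoters were read because several members moved together across libraries, and because the binding core of the hypoxia-inducible factors, ACGTG, and the E-box CACGTG are short enough to be searched directly. RefSeq (GRCh38.p14) gave 18 upstream windows of 250 bases for the 10 genes. ACGTG, on either strand, stood in 10 of these windows (55.6%), against 18.5% of 35116 such windows of all genes, and in at least 1 window of 7 genes. PGAM1, ENO1 and PKM had none. CACGTG, which holds ACGTG on both strands, stood in 4 of the 18 windows, against 6.34% of all windows. These were 1 window each of HK2, ALDOA, GAPDH and LDHA. Shares by gene were not counted over all genes, and the windows of all genes were not matched for base composition. Windows of a gene are not separate, and ALDOA held 3 and HK2 2 of the 10 with ACGTG. Each window ends at the start of a RefSeq transcript, and 15 of the 18 lie within the gene as GENCODE draws it. This holds for every window of PFKP, TPI1, GAPDH, PGK1, PGAM1, ENO1 and PKM. Windows of 4 genes are shown, in lower case with each ACGTG or its reverse complement in capitals. They are HK2, the member whose row rose in the Cap IP (chr2:74833877-74834126, plus strand, before the GENCODE gene), PGK1 (chrX:78103998-78104247, plus strand, within the gene), PKM, whose row fell in the Cap IP (chr15:72231191-72231440, minus strand, within the gene), and LDHA, the window with most matches (chr11:18394313-18394562, plus strand, of which 3 bases are within the gene).
HK2: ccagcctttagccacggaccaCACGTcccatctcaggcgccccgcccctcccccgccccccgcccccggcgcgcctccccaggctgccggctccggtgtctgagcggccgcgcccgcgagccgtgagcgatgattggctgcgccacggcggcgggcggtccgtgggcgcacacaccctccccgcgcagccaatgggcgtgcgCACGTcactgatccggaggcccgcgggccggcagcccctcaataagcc
PGK1: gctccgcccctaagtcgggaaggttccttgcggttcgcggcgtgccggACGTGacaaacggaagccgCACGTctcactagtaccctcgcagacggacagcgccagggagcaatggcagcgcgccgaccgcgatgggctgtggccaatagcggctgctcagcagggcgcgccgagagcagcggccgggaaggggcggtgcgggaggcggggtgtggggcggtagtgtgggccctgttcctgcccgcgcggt
PKM: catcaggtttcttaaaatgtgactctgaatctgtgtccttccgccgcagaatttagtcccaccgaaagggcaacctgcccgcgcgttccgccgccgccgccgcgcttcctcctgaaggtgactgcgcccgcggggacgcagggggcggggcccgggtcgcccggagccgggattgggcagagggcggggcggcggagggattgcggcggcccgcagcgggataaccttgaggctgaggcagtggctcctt
LDHA: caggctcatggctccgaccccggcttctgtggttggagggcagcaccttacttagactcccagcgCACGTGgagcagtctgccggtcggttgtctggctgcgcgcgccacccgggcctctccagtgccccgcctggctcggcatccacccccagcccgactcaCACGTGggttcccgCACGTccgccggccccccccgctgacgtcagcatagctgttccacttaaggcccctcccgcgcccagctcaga
Counting each strand separately, the windows shown held 2 matches for HK2, 2 for PGK1, none for PKM and 5 for LDHA. HK2 and LDHA have a second window, not shown, with 4 matches for HK2 and 0 for LDHA. These are matches of letters and were not tested as binding sites.

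Levels were set side by side per length, as counts per kilobase of exon scaled to the same sum in every library over all genes with a known length. The length merged the exons of all annotated transcripts, such as 8572 bases for PKM and 2396 for GAPDH, and can exceed that of an mRNA. The order between genes depends on it. By CPM in eIF4E input GAPDH was also highest, but PKM lay above ENO1 (1333 against 971), ALDOA above TPI1 and PFKP above HK2, the reverse of the order per length. GAPDH, which oxidises glyceraldehyde 3-phosphate and makes NADH, stood highest in all 4 groups, with a mean length-scaled level of 1746 in eIF4E Cap IP, 1546 in vector Cap IP, 4957 in eIF4E input and 2648 in vector input. ENO1, the enolase, followed, at 340.4 in eIF4E Cap IP, 353.5 in vector Cap IP, 824.8 in eIF4E input and 551.3 in vector input. In input came next PKM, the pyruvate kinase gene, with 687 in eIF4E cells and 409 in vector cells, then TPI1 with 510 in eIF4E cells and 299.5 in vector cells, and then ALDOA, the aldolase, with 364 in eIF4E cells and 205 in vector cells. In eIF4E input no adjacent pair of these first 5 overlapped over the 3 libraries, whereas in vector input ENO1 overlapped with PKM, PKM with TPI1 and TPI1 with ALDOA. PGK1 and LDHA, at 76.4 and 75.6 in eIF4E input, did not differ beyond their spread, nor did the neighbours at the bottom, HK2 with PFKP and PFKP with PGAM1, at 28.8, 23.4 and 15.4.

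The order was not the same in the Cap IP. There TPI1 stood above PKM, at 261 in eIF4E cells and 254 in vector cells, with PKM at 186 in eIF4E cells and 178 in vector cells, although the libraries of these neighbours overlapped. HK2 came directly after ALDOA, at 44.1 ± 10.5 in eIF4E Cap IP and 38.6 ± 15.4 in vector Cap IP (SD, n = 3 each), and overlapped there with LDHA, at 38.0 in eIF4E Cap IP and 30.5 in vector Cap IP. PFKP and PGAM1 stayed last. Together the 10 enzymes took 0.190% to 0.267% of all counts in eIF4E Cap IP libraries, 0.205% to 0.241% in vector Cap IP libraries, 0.720% to 0.826% in eIF4E input libraries and 0.346% to 0.616% in vector input libraries. The shares in eIF4E input lay above those in vector input without overlap. Much of this total was GAPDH, with 44.1% to 46.9% of the enzymes' counts in eIF4E input and 38.4% to 47.6% in vector input. How often other sets of genes would be so placed was not tested.

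**Figure D1:**
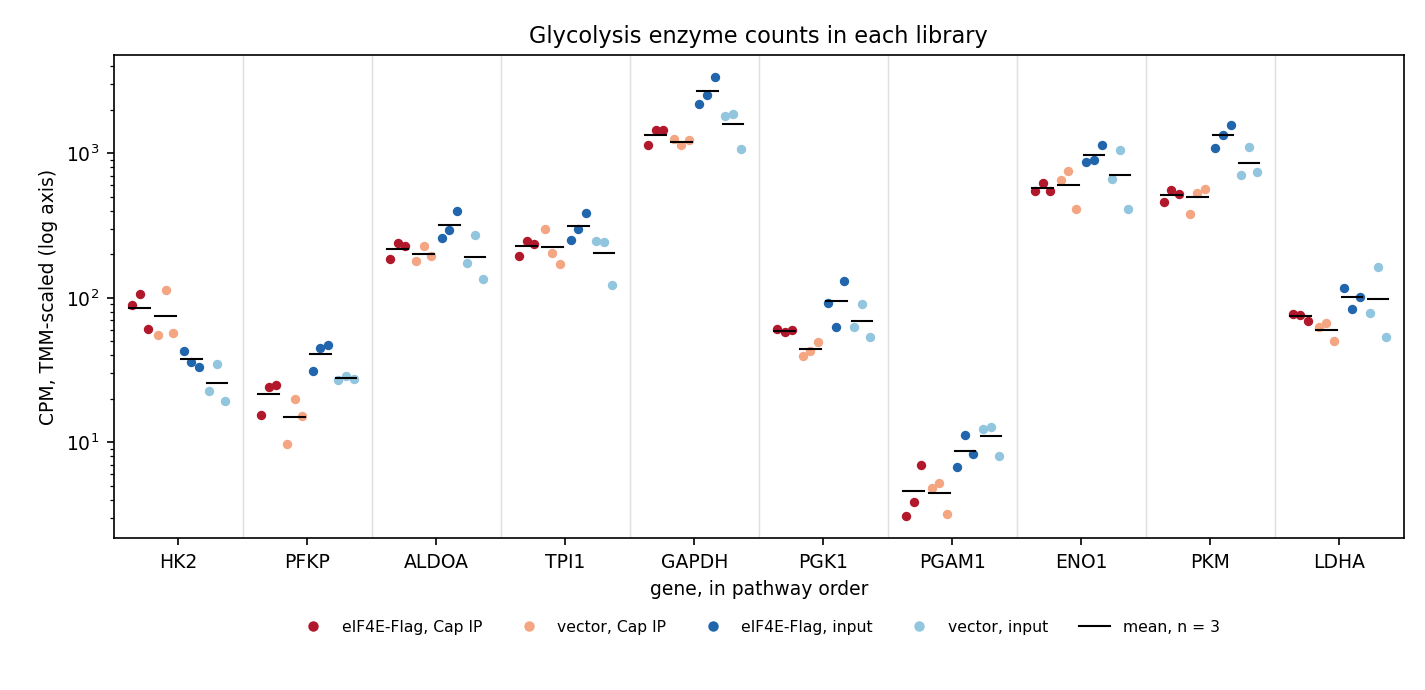
CPM, scaled with TMM, of the 10 enzymes in each library on a log axis; points are libraries, coloured by group with eIF4E to the left of vector and Cap IP to the left of input, and black lines are means of 3. HK2 lies higher and PKM lower in Cap IP than in input in both kinds of cell. GAPDH lies lower in Cap IP in eIF4E cells, while its vector groups overlap.

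In total RNA, the row of no glycolysis enzyme passed the test between eIF4E cells and vector cells, although 9 of the 10 had a positive log2 change. Over all genes 0.53% were called at an edgeR adjusted p under 0.05 (66 genes, 13 higher and 53 lower). The median log2 change of the 10 was 0.56, against -0.05 over all genes tested, of which 46.6% were positive, and it was 0.37 without vector input replicate 3. At an unadjusted p under 0.05 stood 3 members, ALDOA, GAPDH and PKM, where 13.5% of all genes did. The groups did not overlap, with eIF4E higher, for 3 members, where this held for 8.45% of all genes. In these bulk libraries more RNA per cell and more cells holding the RNA cannot be told apart.

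HK2, which phosphorylates glucose and binds mitochondria, had 43.1, 36.2 and 33.2 CPM in eIF4E input libraries, against 22.6, 34.7 and 19.4 CPM in vector input libraries. One vector library lay among the eIF4E libraries, and the log2 change was 0.56 ± 0.34 (SE, edgeR adjusted p = 0.482). PFKP, the platelet-type phosphofructokinase that commits the sugar to the pathway, had 31.2, 45.0 and 47.2 CPM in eIF4E input, against 27.2, 28.9 and 27.4 CPM in vector input. Its groups did not overlap, yet the log2 change of 0.56 ± 0.31 did not pass (SE, edgeR adjusted p = 0.431). ALDOA, which cleaves fructose 1,6-bisphosphate, had 260.5, 294 and 398 CPM in eIF4E input, against 173, 269.9 and 134 CPM in vector input. Its log2 change was 0.72 ± 0.29 (SE, edgeR adjusted p = 0.272), with vector replicate 2 inside the eIF4E range. TPI1 averaged 313 ± 68.3 CPM in eIF4E input and 204 ± 70.3 CPM in vector input (SD, n = 3 each), and all 3 eIF4E libraries lay above the vector libraries.

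GAPDH had 2190, 2550 and 3363 CPM in eIF4E input libraries, against 1815, 1876 and 1075 CPM in vector input libraries. All eIF4E libraries lay above all vector libraries, and the log2 change was 0.77 ± 0.29 (SE, edgeR adjusted p = 0.254), the largest of the 10. PKM, which makes pyruvate and ATP, had 1091, 1348 and 1558 CPM in eIF4E input, against 705, 1114 and 744 CPM in vector input. Here vector replicate 2 lay just above the lowest eIF4E library, and the log2 change was 0.64 ± 0.28 (SE, edgeR adjusted p = 0.320). ENO1, which makes phosphoenolpyruvate, averaged 971 ± 150 CPM in eIF4E input and 709 ± 323 CPM in vector input (SD, n = 3 each), with overlap. PGK1, which makes ATP from 1,3-bisphosphoglycerate, averaged 94.7 ± 33.5 CPM in eIF4E input and 68.7 ± 19.3 CPM in vector input (SD, n = 3 each), also with overlap.

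PGAM1, which moves the phosphate of phosphoglycerate, was the exception, with 6.72, 11.2 and 8.31 CPM in eIF4E input, against 12.3, 12.8 and 8.01 CPM in vector input. That rests on 16 to 24 counts per library and its log2 change was -0.33 ± 0.42 (SE, edgeR adjusted p = 0.763). LDHA, which makes lactate, had 117, 83.6 and 101 CPM in eIF4E input, against 78.9, 164 and 53.1 CPM in vector input, and a log2 change of 0.04 ± 0.32 that turned negative when eIF4E replicate 1, vector replicate 1 or vector replicate 3 was left out (-0.08, -0.09 and -0.27).

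Libraries of vector input stood apart from each other in this pathway. All 10 members lay above their group mean in replicate 2 (median deviation 0.42, log2), and none did in replicate 3 (median deviation -0.42). The number of genes called over the whole table also moved with single libraries. Among eIF4E input libraries, leaving out replicate 1 gave 109 genes, replicate 2 gave 7 and replicate 3 gave 9. Leaving out replicate 3 of vector input gave 13, while no member was called with any library left out. The summed level of 5 epithelial markers moved with the groups too. These markers, all detected in eIF4E input, summed to 2445 to 3982 CPM there, against 1366 to 2241 CPM in vector input, where KRT19 had no counts. The sum does not show the direction of each marker, and an abundant row could carry it. The part of these markers in the result was not tested.

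**Figure D2:**
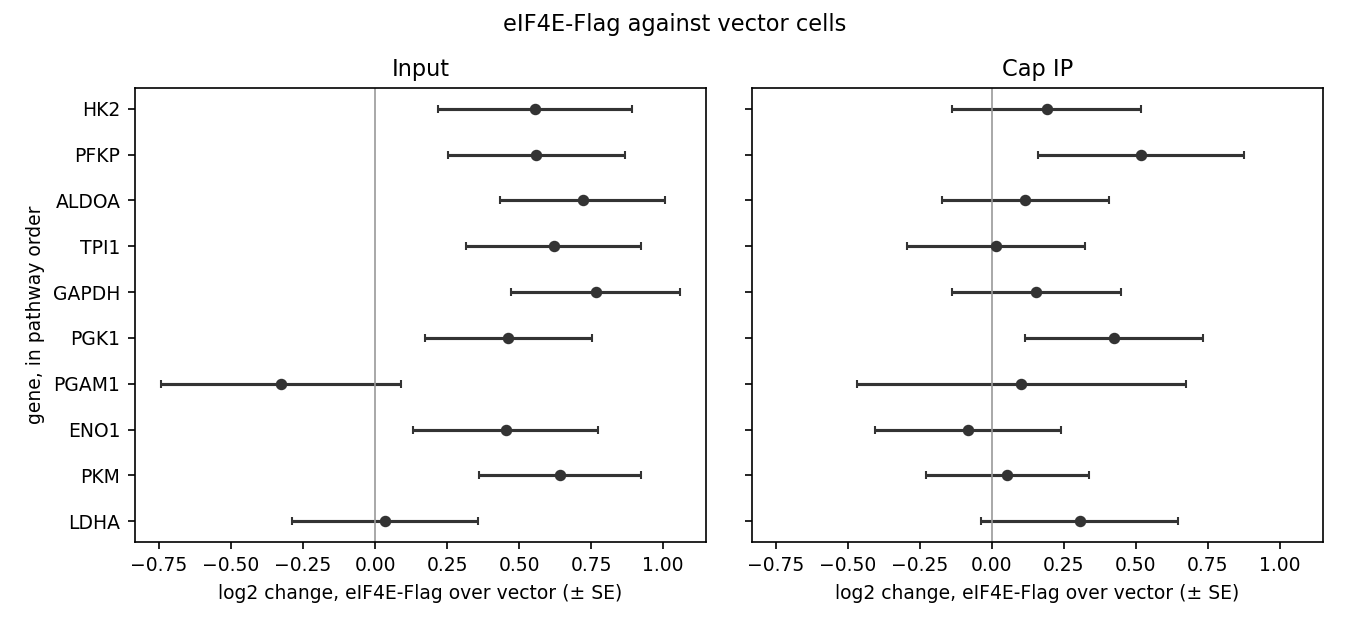
Log2 change of the 10 enzymes in eIF4E-Flag over vector cells, with standard errors derived from edgeR's F statistic, in input (left) and Cap IP (right). In input 9 of 10 values lie above 0 with a median of 0.56, in Cap IP 9 of 10 with a median of 0.14, and none passed the test.

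Between Cap IP and input, HK2 was the only one of the 10 enzyme rows to pass as higher, in both kinds of cell, while PFKP and PKM were lower in both. In eIF4E cells 4 of the 10 passed, HK2 higher and PFKP, GAPDH and PKM lower, where 45.1% of all genes did (21.9% higher and 23.3% lower). In vector cells 4 of the 10 passed, HK2 higher and PFKP, PGAM1 and PKM lower, where 39.5% of all genes did (18.5% higher and 21% lower). These shares are near those of all genes. The median log2 change of the 10 was -0.72 in eIF4E cells, against -0.13 over all genes, and -0.52 in vector cells, against -0.04. Without vector input replicate 2 the vector median was -0.19. The groups did not overlap for 8 lower members and 1 higher in eIF4E cells, where 29.5% and 25.4% of all genes were so placed, and for 4 lower and 1 higher in vector cells, where 27.2% and 22.7% were. Rows of RNA polymerase III transcripts, which lack the m7G cap, were taken as the background of the antibody step, with the same doubt about strand. RN7SL1, RN7SK, RMRP and RPPH1 fell by 7.36 to 8.74 on the log2 scale in eIF4E cells. Their log2 changes were -9.45 to -6.79 in vector cells. A log2 change here is relative to the other RNAs of the same library, and so shows unequal recovery between genes rather than an absolute share with a cap.

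HK2 had 89.3, 106 and 60.5 CPM in eIF4E Cap IP libraries, against 43.1, 36.2 and 33.2 CPM in eIF4E input libraries. In vector cells it had 55.4, 114 and 56.8 CPM in Cap IP, against 22.6, 34.7 and 19.4 CPM in input. The Cap IP libraries lay above all input libraries in both kinds of cell, and the log2 change was 1.18 ± 0.33 in eIF4E cells (SE, edgeR adjusted p = 0.00681) and 1.55 ± 0.34 in vector cells (SE, edgeR adjusted p = 0.00142). Leaving out eIF4E Cap IP replicate 2 gave 0.97 (edgeR adjusted p = 0.0503). Both calls were lost with total counts as library sizes, at 0.29 in eIF4E cells (edgeR adjusted p = 0.442) and 0.76 in vector cells (edgeR adjusted p = 0.0639), and that in eIF4E cells also with mitochondrial mRNAs, at 1.45 (edgeR adjusted p = 0.184).

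PFKP had 15.4, 24.1 and 24.8 CPM in eIF4E Cap IP libraries, against 31.2, 45.0 and 47.2 CPM in eIF4E input, and 9.72, 20.0 and 15.3 CPM in vector Cap IP libraries, against 27.2, 28.9 and 27.4 CPM in vector input. Neither pair of groups overlapped. The log2 change was -0.93 ± 0.33 in eIF4E cells (SE, edgeR adjusted p = 0.0246) and -0.89 ± 0.34 in vector cells (SE, edgeR adjusted p = 0.0419). Both calls depended on single libraries. In eIF4E cells the edgeR adjusted p was 0.111 without Cap IP replicate 1, 0.0763 without input replicate 2 and 0.0649 without input replicate 3. In vector cells the call was lost without any one library except Cap IP replicate 2, with edgeR adjusted p between 0.0748 and 0.182, and also with no filter on low counts (-0.95, edgeR adjusted p = 0.0829).

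PKM had 458, 561 and 522 CPM in eIF4E Cap IP libraries, against 1091, 1348 and 1558 CPM in eIF4E input, with no overlap and a log2 change of -1.38 ± 0.29 (SE, edgeR adjusted p = 6.97e-04). In vector cells it had 381, 533 and 570.1 CPM in Cap IP, against 705, 1114 and 744 CPM in input, and the log2 change was -0.79 ± 0.28 (SE, edgeR adjusted p = 0.0325). The vector groups did not overlap, but without Cap IP replicate 1, Cap IP replicate 2 or input replicate 2 the edgeR adjusted p was 0.146, 0.0549 and 0.181. GAPDH had 1137, 1449 and 1441 CPM in eIF4E Cap IP, against 2190, 2550 and 3363 CPM in eIF4E input, a log2 change of -1.01 ± 0.30 (SE, edgeR adjusted p = 0.00908). In vector Cap IP it had 1258, 1132 and 1228 CPM, against 1815, 1876 and 1075 CPM in vector input, where the groups overlapped and the log2 change of -0.40 ± 0.29 did not pass (SE, edgeR adjusted p = 0.294).

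PGAM1 had 5 counts in each vector Cap IP library, against 19, 24 and 19 in vector input, and a log2 change of -1.33 ± 0.49 (SE, edgeR adjusted p = 0.0362). With so few counts the call was lost without any one of 5 of the 6 libraries, all except vector input replicate 3, at edgeR adjusted p between 0.0604 and 0.134, while the log2 change lay between -1.53 and -1.11 over all 6. It was also lost with DESeq2 (-1.42, adjusted p = 0.0718) and with no filter on low counts (-1.39, edgeR adjusted p = 0.0736). In eIF4E cells its 3, 4 and 7 counts in Cap IP, against 17, 23 and 16 in input, gave -0.90 ± 0.50, which did not pass (SE, edgeR adjusted p = 0.148). The remaining members, ALDOA, TPI1, PGK1, ENO1 and LDHA, did not pass in either kind of cell. Their log2 changes lay between -0.76 for ENO1 and -0.44 for LDHA in eIF4E cells, and between -0.71 for LDHA and 0.14 for TPI1 in vector cells. ENO1 lay close to the threshold in eIF4E cells (edgeR adjusted p = 0.0619). It passed there with DESeq2 (-0.83, adjusted p = 0.0344), with a filter of at least 50 counts in 3 libraries (-0.80, edgeR adjusted p = 0.0313), with no filter (-0.93, edgeR adjusted p = 0.0199), with only the 6 libraries compared (-0.85, edgeR adjusted p = 0.00681) and with the culture as a block (-0.75, edgeR adjusted p = 0.00893). PGK1 passed with that filter of 50 counts in both kinds of cell (edgeR adjusted p = 0.0314 in eIF4E cells and 0.0407 in vector cells), and in eIF4E cells PGK1 and ALDOA passed with only the 6 libraries compared (edgeR adjusted p = 0.0340 and 0.0367). LDHA passed in vector cells at -1.02 without input replicate 3 (edgeR adjusted p = 0.0205) and PGK1 passed in eIF4E cells at -0.90 without input replicate 2 (edgeR adjusted p = 0.0327). ENO1-AS1, on the other strand of ENO1, rose in the Cap IP by 1.67 in eIF4E cells (edgeR adjusted p = 0.00135) and by 1.62 in vector cells (edgeR adjusted p = 0.00167).

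The directions hold for TMM scaling and are relative to the typical gene. Scaling to mitochondrial mRNAs, whose rows carry the same doubt about strand, moved the median of all genes to 0.03 in eIF4E cells and 0.97 in vector cells, and with it PFKP, GAPDH, PGK1, ENO1, PKM and LDHA became positive in vector cells (0.38 to 1.19). Total counts moved that median to -0.99 in eIF4E cells and -0.78 in vector cells, and with it ALDOA and TPI1 became negative in vector cells (-0.69 and -0.61). HK2 stayed above, and PGAM1 below, 0 under both in both kinds of cell.

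**Figure D3:**
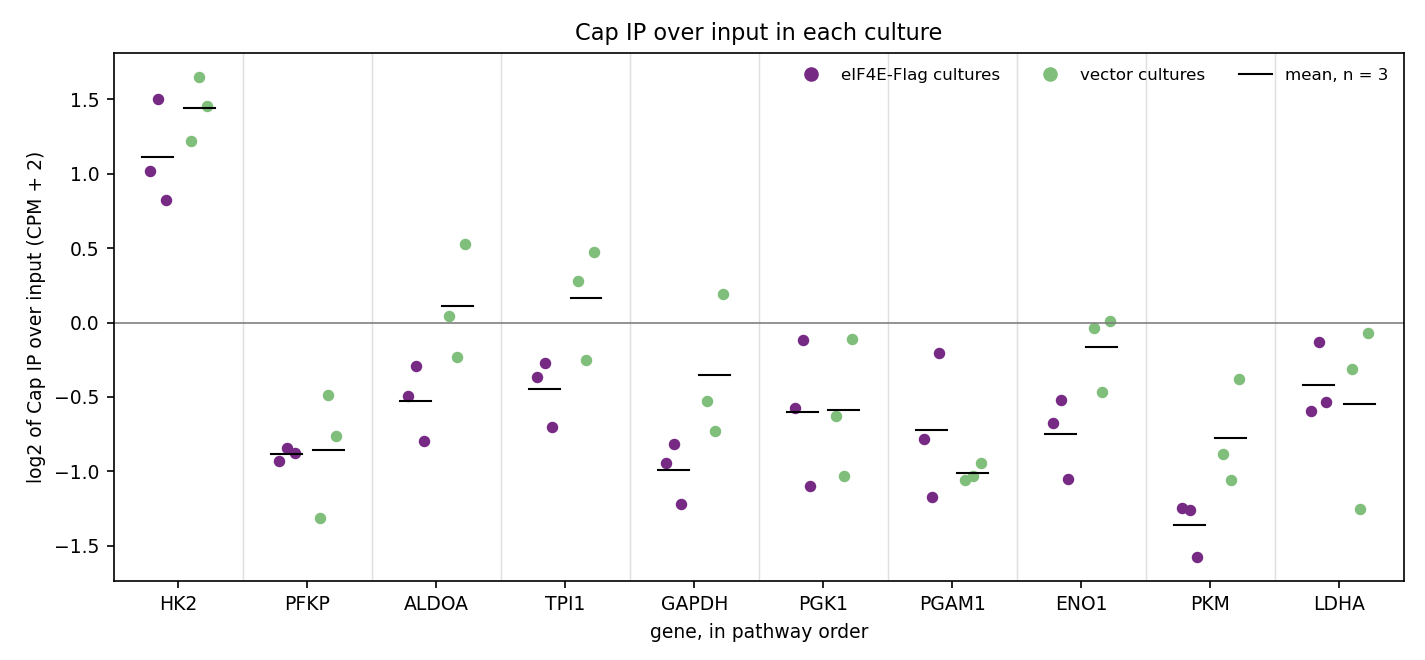
Log2 of Cap IP over input (CPM + 2) for each of the 10 enzymes in each culture, eIF4E-Flag cultures to the left of vector cultures; black lines are means of 3. HK2 lies above 0 in all 6 cultures. The 3 eIF4E values of ALDOA, TPI1, GAPDH, ENO1 and PKM lie below the 3 vector values, most narrowly for TPI1. This placing was found for 8.31% of all genes, and these genes were read in the same cultures.

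Whether eIF4E altered the Cap IP over input was asked with the difference of these contrasts, eIF4E minus vector. No gene of the 12460 was called by edgeR's test (0%), 728 (5.84%) stood at an unadjusted p under 0.05, and DESeq2 also called 0. With the culture as a block 51 genes were called, none of them a member. The difference was negative for 8 of the 10 enzymes and the median was -0.45, against 0.02 over all genes, of which 51.3% were positive, with PGAM1 at 0.43 and LDHA at 0.27 as the positive values. Single libraries moved the median to -0.21 without vector Cap IP replicate 2, -0.23 without vector input replicate 3 and -0.71 without vector input replicate 2, and the number of negative members was 6 without vector Cap IP replicate 2 or eIF4E input replicate 3. The lowest edgeR adjusted p was 0.851, for ALDOA, GAPDH and PKM alike. The eIF4E input and vector input libraries enter both this difference and the comparison in total RNA, so the negative values here and the positive values there are not separate evidence.

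Each input library has a Cap IP library whose title begins alike, and such a pair is taken here as a culture. Cap IP over input could therefore also be read culture by culture, on a log2(CPM + 2) scale that understates changes of low genes. ALDOA gave -0.49, -0.29 and -0.80 in eIF4E cultures, against 0.05, -0.23 and 0.53 in vector cultures. GAPDH gave -0.94, -0.81 and -1.22 in eIF4E cultures, against -0.53, -0.73 and 0.19 in vector cultures. PKM gave -1.25, -1.26 and -1.58 in eIF4E cultures, against -0.88, -1.06 and -0.38 in vector cultures. In each case the eIF4E cultures lay below the vector cultures, as they also did for TPI1 and ENO1. So 5 of the 10 members were so placed, where 8.31% of all genes tested were. The highest eIF4E and lowest vector values were close, at -0.27 and -0.25 for TPI1 and -0.52 and -0.47 for ENO1. For all 5 genes the lowest vector value came from vector replicate 2, so they are not separate placings. The differences of the means, eIF4E minus vector, lay between -0.64 and -0.58 for these 5 genes, each with a two-sided exact permutation p of 0.1, the smallest that 3 against 3 can give. HK2 lay above 0 in every culture, at 1.02, 1.50 and 0.83 in eIF4E cultures and 1.22, 1.65 and 1.46 in vector cultures, and its groups overlapped. PFKP, PGK1, PGAM1 and LDHA overlapped as well, with mean differences of -0.03, -0.01, 0.29 and 0.13.

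Within the Cap IP, no enzyme passed between eIF4E and vector cells, where 0.225% of all genes did (28 genes, and 155 with the shared tag of the titles as a block, again with no member). The median log2 change was 0.14, with 9 of 10 positive, against -0.01 and 48.8% over all genes, and it lay between 0.09 without eIF4E replicate 2 and 0.27 without eIF4E replicate 1. PFKP had the largest value, 0.52 ± 0.36 (SE, edgeR adjusted p = 0.718), with overlap between the groups. For PGK1, at 60.5, 57.9 and 59.5 CPM in eIF4E Cap IP, against 39.9, 43.1 and 49.2 CPM in vector Cap IP, the groups did not overlap, and the same held for LDHA at 77.0, 76.3 and 69.4 CPM in eIF4E Cap IP, against 63.2, 67.3 and 50.4 CPM in vector Cap IP, where 6.16% of all genes were so placed. Their log2 changes of 0.42 ± 0.31 and 0.31 ± 0.34 did not pass (SE, edgeR adjusted p = 0.740 and 0.843). Scaling to mitochondrial mRNAs moved the median of all genes to -0.63, and all 10 members were then negative. The 5 epithelial markers summed to 4901 to 6568 CPM in eIF4E Cap IP, against 3047 to 4651 CPM in vector Cap IP, and their part was not tested. The 28 genes became 0 without eIF4E replicate 2, 1 without eIF4E replicate 3 and 4 without vector replicate 3.

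The rest of the pathway was read from lists of related genes, none of which was called in a comparison of eIF4E with vector cells. Of 21 other isoenzymes of glycolysis, 11 were tested. In the Cap IP against input 7 of these were lower in eIF4E cells, where 23.3% of all genes were, and 5 in vector cells, where 21% were, and none was higher in either. The 7 were GPI, HK1, PFKL, PGAM5, PGAM2, ENO2 and ENO3, and the 5 were GPI, HK1, PGAM5, PGAM2 and ENO2, of which ENO2 and ENO3 are named after their values were seen. GPI, which isomerises glucose 6-phosphate, fell by 1.65 in eIF4E cells (edgeR adjusted p = 1.57e-04) and by 1.04 in vector cells (edgeR adjusted p = 0.00754). HK1, the hexokinase of most tissues, fell by 1.55 in eIF4E cells (edgeR adjusted p = 2.83e-04) and by 0.95 in vector cells (edgeR adjusted p = 0.0121), the opposite direction to HK2. The liver-type phosphofructokinase PFKL fell by 1.62 in eIF4E cells (edgeR adjusted p = 7.15e-04). PGAM2, the muscle phosphoglycerate mutase, was lower in both (-1.66 in eIF4E cells and -2.32 in vector cells, edgeR adjusted p = 0.00170 and 1.26e-04), but its exons lie opposite DBNL, whose row held more counts than its own. ENO3 likewise lies opposite PFN1, with 9.6 counts per library against 406.6. PGAM5, also lower in both, is a mitochondrial phosphatase that shares the name but is not known for a step of glycolysis. Of the tested rows that did not pass, GAPDHS and ADPGK also face larger rows, TMEM147-AS1 and ADPGK-AS1. The median of the list was -1.55 in eIF4E cells and -0.75 in vector cells.

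Transporters and regulators had calls in both directions, in shares to be read against 45.1% of all genes called in eIF4E cells and 39.5% in vector cells. Of 8 tested transporters of glucose, lactate and pyruvate, MPC2, a subunit of the mitochondrial pyruvate carrier, rose in the Cap IP by 1.37 in eIF4E cells (edgeR adjusted p = 0.00215) and by 1.77 in vector cells (edgeR adjusted p = 3.37e-04), with DCAF6 on its other strand. The glucose transporter SLC2A3 fell by 1.78 in eIF4E cells (edgeR adjusted p = 0.0248). SLC2A1, the main glucose transporter of most tumour cells, had a log2 change of 0.98 ± 0.29 in eIF4E over vector input that did not pass (SE, edgeR adjusted p = 0.137). Of 12 tested regulators, 1 was higher and 5 lower in the Cap IP of eIF4E cells, and 1 higher and 3 lower in that of vector cells. PDK1, the kinase that blocks pyruvate dehydrogenase, rose by 2.20 in eIF4E cells (edgeR adjusted p = 6.33e-04) and by 1.404 in vector cells (edgeR adjusted p = 0.0471). EPAS1 and ARNT, subunits of hypoxia-inducible factors, were lower, at -1.48 and -2.17 in eIF4E cells (edgeR adjusted p = 0.00511 and 0.00699) and -1.80 and -2.27 in vector cells (edgeR adjusted p = 0.00241 and 0.00548). In input the regulator TIGAR, which lowers fructose 2,6-bisphosphate, had 1.80 ± 0.48 in eIF4E over vector cells without passing (SE, edgeR adjusted p = 0.104). SLC2A3, TIGAR, ARNT and PDK1 averaged only 12.5, 13.1, 15.9 and 16.9 counts per library, near the 12.2 of PGAM1. Values with other settings or a library left out are given for the 10 enzymes only.

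Downstream and side branches of glycolysis were called less often than the 45.1% of all genes in eIF4E cells and the 39.5% in vector cells, except for gluconeogenesis and glycogen in eIF4E cells, and none of these differences was tested. Of 20 tested genes of pyruvate dehydrogenase and the TCA cycle, 1 was higher and 6 lower in the Cap IP of eIF4E cells, and 1 higher and 2 lower in that of vector cells. PDHX, the E3-binding protein of pyruvate dehydrogenase, rose by 1.62 in eIF4E cells and by 1.68 in vector cells (edgeR adjusted p = 2.08e-04 in each), with APIP on its other strand. OGDH and the citrate synthase gene CS were lower, at -1.76 and -1.30 in eIF4E cells (edgeR adjusted p = 6.87e-04 and 0.00591) and -1.19 and -1.08 in vector cells (edgeR adjusted p = 0.0129 and 0.0199). In the pentose phosphate pathway, 2 of 7 tested genes, TALDO1 and TKT, were lower in eIF4E cells (-1.06 and -0.81, edgeR adjusted p = 0.0229 and 0.0252) and none passed in vector cells. Of 10 tested genes of gluconeogenesis and glycogen, 3 were higher and 3 lower in eIF4E cells, and 2 higher and 1 lower in vector cells: the glycogen phosphorylase gene PYGB was lower (-2.14 in eIF4E cells and -2.07 in vector cells, edgeR adjusted p = 3.66e-05 and 7.47e-05) and the branching enzyme gene GBE1 rose by 1.54 in eIF4E cells and by 1.67 in vector cells (edgeR adjusted p = 0.00158 and 5.82e-04). In the serine and one-carbon branch, 2 of 8 were lower in eIF4E cells and 1 in vector cells, led by SHMT1 at -1.78 in eIF4E cells and -1.90 in vector cells (edgeR adjusted p = 8.53e-04 and 6.12e-04).

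Hypoxia-inducible genes outside glycolysis lay on both sides of 0 in total RNA. Of 15 tested, 6 were positive in eIF4E over vector input, and the median was -0.04, against -0.05 over all genes and 0.56 for the enzymes. In the Cap IP against input 1 rose and 1 fell in eIF4E cells, ANKRD37 at 2.38 (edgeR adjusted p = 0.00280) and P4HA2 at -1.66 (edgeR adjusted p = 0.00442), and none passed in vector cells, where 45.1% of all genes passed in eIF4E cells and 39.5% in vector cells. How these lists differ from each other was not tested. Of the genes named from the lists, HK1, SLC2A1, TIGAR, PDK1, CS, SHMT1, ANKRD37 and P4HA2 also have exons opposite another gene, and the rows opposite SHMT1 (SMCR8) and P4HA2 (P4HA2-AS1) held more counts than their own.

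**Figure D4:**
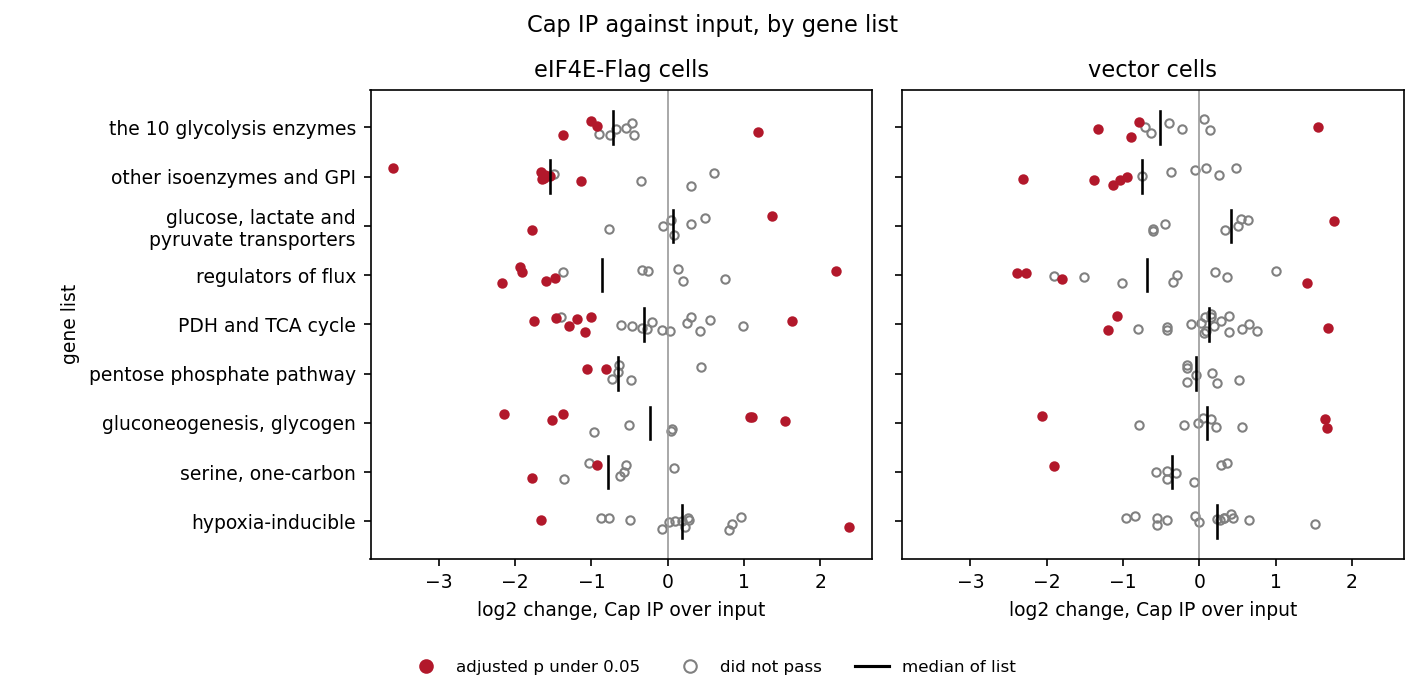
Log2 change in Cap IP over input of the tested genes of each list, in eIF4E-Flag cells (left) and vector cells (right); filled points passed at an edgeR adjusted p under 0.05, open points did not, and black bars are list medians. The 10 enzymes have 3 filled points below 0 and 1, HK2, above 0 in each panel, and the other isoenzymes have filled points below 0 alone.

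The enzymes varied together across the 12 libraries to unequal degrees. The log2 CPM of each was correlated with the mean of the other 9. Pearson's r was 0.91 for GAPDH, 0.90 for ENO1, 0.87 for ALDOA and 0.81 for PGK1 and PKM. It was 0.77 for LDHA, 0.73 for PFKP, 0.68 for TPI1, 0.50 for PGAM1 and -0.36 for HK2. With the group means removed, HK2 was no longer apart: r was 0.34 for PFKP, 0.42 for HK2 and 0.45 for PGAM1, and between 0.55 for PGK1 and 0.96 for ALDOA for the others. These points share library depth and scaling and the values are a description. Among 5096 other well expressed genes (average log2 CPM of 4 or more), those most like the mean profile of the 10 enzymes included PVR (r = 0.96), NOP56 (r = 0.96), TRIM28 (r = 0.95) and WDR5 (r = 0.95), over 12 libraries. TRIM28, for example, averaged 69.3 CPM in eIF4E Cap IP, 50.6 CPM in vector Cap IP, 172 CPM in eIF4E input and 89.0 CPM in vector input.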

How the data were processed

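The 12 libraries of U2OS cells form 4 groups of 3. The authors deposited raw read counts by gene name. Per the submitters' processing notes, STAR 2.5.1b, featureCounts 1.4.5-p1, DESeq2 and GRCh38.p5 were used. Per the labels, the kit was KAPA RNA HyperPrep with RiboErase, and reads were single-end over 75 cycles. Strand setting and gene annotation were not given in the sources used here, so a row may hold reads of the strand opposite to the gene it names.

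Genes kept by filterByExpr (12460 of 58684) were TMM-scaled and tested in a quasi-likelihood model of edgeR 4.0.16 (R 4.3.3, limma 3.58.1), with a mean for each of 4 groups over all 12 libraries and a common dispersion of 0.0883. A gene was called in any of 5 comparisons at a Benjamini-Hochberg adjusted p under 0.05 over all genes tested. Standard errors beside edgeR's log2 changes are the absolute log2 change over the square root of the test's F statistic. Overlap of groups used log2 CPM with a prior count of 2. No replicates were copies (chi-square over its degrees of freedom 5.98 to 23.0 between replicates). Positions and exon lengths came from GENCODE release 44, with 33465 rows matched by symbol and 1660 by an older symbol, and promoters from RefSeq. These steps and the exact tests used pandas 2.3.3 and NumPy 2.4.6 in Python 3.11.15, and figures used matplotlib 3.10.9.

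The members, lists and tests were chosen with earlier results of these data known. All 10 members are named, and of each list up to 4 genes with the smallest p. The 5 genes most like the members were ranked by Pearson's r. A gene that this rule names is not reported here. Alternatives were DESeq2 1.42.0, 4 other scalings, filters, only the 6 libraries compared, blocks and each library left out. Residuals of libraries that share a culture stem correlated at 0.43, 0.27 and 0.44 in vector cells and at 0.35, 0.08 and 0.11 in eIF4E cells. For libraries that share a tag they did so at 0.18, 0.01 and -0.04 in input and at 0.20, 0.16 and 0.30 in Cap IP. Libraries that share neither were not set beside these, so the values do not settle which libraries are paired. Data were simulated for 12460 genes with the common dispersion, of which 100 changed 2-fold and 100 changed 4-fold. For eIF4E against vector in input 76% of 4-fold and 10% of 2-fold changes were called. For the difference of contrasts these were 23% and 0%. In Cap IP against input far more genes were called in the real data, so such recoveries do not describe it.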

Additional observations from a re-analysis of the deposited data

How the results depend on the processing

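For eIF4E against vector in input, 66 genes became 32 with the filter of 50 counts in 3 libraries, 137 with DESeq2, 7 with mitochondrial mRNAs as library sizes, 318 with no filter, 18 with only the 6 libraries compared, 462 with the tag as a replicate block and 11 with total counts, and between 7 and 109 when a library was left out. No member was called under any of these. The cause of these moves was not tested, except that the filters change how many genes are tested. For eIF4E against vector in Cap IP, 28 genes became 18 with the 50-count filter, 68 with DESeq2, 18 with mitochondrial mRNAs, 204 with no filter, 6 with 6 libraries and 155 with the tag as a block, and between 0 and 30 with a library left out. The difference of contrasts gave 3 genes with no filter and 51 with the culture as a replicate block. Cap IP against input gave 3432 genes in eIF4E cells and 2949 in vector cells with the 50-count filter, and 1553 in eIF4E cells with mitochondrial mRNAs.

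Of the 10 enzymes, in eIF4E cells 0 passed for Cap IP against input with mitochondrial mRNAs, 7 with 6 libraries and 9 with total counts. In vector cells 1 passed with mitochondrial mRNAs, 2 with no filter and 8 with total counts, and between 1 and 4 with a library left out. With the culture as a block, ENO1 and PGK1 were also called in eIF4E cells (edgeR adjusted p = 0.00893 and 0.0365), and the block changed no other call of a member.

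With mitochondrial mRNAs, Cap IP against input in vector cells turned to 0.38 for PFKP, 0.82 for GAPDH, 0.50 for PGK1, 1.19 for ENO1, 0.47 for PKM and 0.54 for LDHA. The difference of contrasts turned to -0.36 for PGAM1 and -0.78 for LDHA. In Cap IP, eIF4E against vector turned to -0.80 for HK2, -0.21 for PFKP, -0.66 for ALDOA, -0.60 for TPI1, -0.48 for GAPDH, -0.24 for PGK1, -0.41 for PGAM1, -0.68 for PKM and -0.48 for LDHA. With total counts, Cap IP against input in vector cells turned to -0.69 for ALDOA and -0.61 for TPI1. ALDOA was there also -0.0067 with the 50-count filter, -0.0148 with DESeq2 and -0.0155 with no filter. In Cap IP, TPI1 was -0.0072 with the 50-count filter and -0.00338 with total counts. On the scale of each culture, a pseudocount of 0.5 CPM gave -0.93 for PFKP in eIF4E cells and -1.22 for PGAM1 in vector cells.

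With a library left out, some values without a call changed sign. In input LDHA lay between -0.27 and 0.63. Cap IP against input in vector cells lay between -0.15 and 0.39 for ALDOA, -0.13 and 0.30 for TPI1, and -0.51 and 0.18 for ENO1. The difference of contrasts lay between -0.66 and 0.025 for HK2, -0.28 and 0.16 for PFKP, -0.30 and 0.25 for PGK1, -0.012 and 0.64 for PGAM1, and -0.32 and 0.57 for LDHA. In Cap IP, eIF4E against vector lay between -0.12 and 0.29 for TPI1, -0.30 and 0.35 for PGAM1, -0.27 and 0.14 for ENO1, and -0.087 and 0.20 for PKM. Depth limits PGAM1 most, with 3 to 24 counts per library. In simulated data with few changed genes, 10% of 2-fold changes were called for eIF4E against vector in input. That value does not carry over to Cap IP against input, where far more genes were called.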
